A study of Mus musculus with 12 samples.

Results

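Immediate early genes are genes whose transcription starts within minutes of a stimulus, and several of them are also switched on when a tissue is taken apart with enzymes at body temperature. The 10 members described here are Fos, Fosb, Jun, Junb, Egr1, Atf3, Ier2, Ier3, Dusp1 and Zfp36, found by symbol among the 27825 genes of the deposited table of normalized counts. All 10 were present, and all 10 were among the 22238 genes with a mean of at least 10 normalized counts over the 12 libraries, which is the filter on low values. The lowest read number behind any member was 45 reads, for Fosb. Bulk RNA-seq had been carried out on cells sorted for a yellow fluorescent protein from mesentery, the fold of tissue that holds the gut and its vessels, and from the epididymal fat pads of mice.

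All animals were male ROSA26-eYFP+/+ Cdh5-CreERT2+ mice: Cdh5, a gene of endothelial cells, drives a Cre recombinase that tamoxifen activates and that switches on the fluorescent reporter. Every group ate a tamoxifen diet for 2 weeks, beginning when the animals were 6 weeks old. Normal chow (5.8% fat) or a diet with 60% fat (HFD) followed from an age of 8 weeks and lasted 12 to 13 weeks. The 4 groups, each of 3 libraries with the letters A, B and C, were mesentery on chow, mesentery on HFD, epididymal fat on chow and epididymal fat on HFD. Each sample pooled tissue of 6 mice, so no library shows the variation between single mice. Tissue was digested with Liberase at 37 °C for 1 h and for a further 30 min, in solutions that contained actinomycin D, a blocker of transcription, at 1 µg/ml. Each description also carries a number that the mesentery and the epididymal library of one letter and diet share: 50, 51 and 87 for chow A, B and C, and 88, 52 and 53 for HFD A, B and C. The labels state neither what the numbers mean nor whether same-numbered libraries come from the same mice. They speak of 2 independent replicates where the titles give 3 letters, so p-values measure the spread between these libraries, part of which may be technical.

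Fos, Fosb, Jun and Junb encode subunits of AP-1, a transcription factor made of 2 proteins joined by a leucine zipper, and Atf3 encodes a stress-induced relative that can pair with Jun proteins. Egr1 is a zinc finger transcription factor of the same early wave, and Ier2 and Ier3 are short early response genes. Dusp1 and Zfp36 belong to the shut-off arm: Dusp1 removes phosphate from MAP kinases, and Zfp36 (tristetraprolin) binds AU-rich messenger RNAs and speeds their decay. Their transcripts are short-lived. In endothelial cells members of this set respond to growth factors, to inflammatory signals and to flow.

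Many promoters of this class carry a cAMP response element, which CREB proteins bind, or a CArG box, which serum response factor binds. RefSeq promoter windows (build GRCm38.p6) of 250 bases before the start site were read for 8 members, and 4 are shown: Fos, Junb and Zfp36, whose levels followed each other most closely over the 12 libraries, and Dusp1, the member with the highest level per length. Capitals mark matches, on either strand, to the motifs searched.
Fos, chr12:85473640-85473889, plus strand: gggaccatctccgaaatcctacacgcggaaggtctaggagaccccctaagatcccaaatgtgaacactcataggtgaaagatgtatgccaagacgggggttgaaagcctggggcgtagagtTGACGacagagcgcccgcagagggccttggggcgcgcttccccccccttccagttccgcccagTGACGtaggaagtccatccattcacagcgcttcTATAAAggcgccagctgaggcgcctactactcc
Junb, chr8:84978749-84978998, minus strand: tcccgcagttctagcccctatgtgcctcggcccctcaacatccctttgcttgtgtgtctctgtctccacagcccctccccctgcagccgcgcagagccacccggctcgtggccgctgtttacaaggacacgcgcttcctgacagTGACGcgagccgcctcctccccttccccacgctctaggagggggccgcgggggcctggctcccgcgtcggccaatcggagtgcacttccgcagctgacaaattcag
Zfp36, chr7:28379229-28379478, minus strand: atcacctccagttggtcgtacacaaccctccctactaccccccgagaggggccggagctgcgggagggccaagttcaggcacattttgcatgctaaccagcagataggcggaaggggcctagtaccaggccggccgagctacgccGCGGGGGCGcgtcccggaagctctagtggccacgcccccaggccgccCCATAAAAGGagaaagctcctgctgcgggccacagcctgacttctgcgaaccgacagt
Dusp1, chr17:26508473-26508722, minus strand: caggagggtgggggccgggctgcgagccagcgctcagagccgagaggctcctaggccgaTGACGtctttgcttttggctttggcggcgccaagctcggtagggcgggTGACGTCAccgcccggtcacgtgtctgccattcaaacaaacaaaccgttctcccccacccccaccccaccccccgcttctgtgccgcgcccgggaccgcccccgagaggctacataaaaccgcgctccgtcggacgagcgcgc
The motifs were the full cAMP response element TGACGTCA, its half-site TGACG, the AP-1 site TGANTCA, the EGR site GCGNGGGCG, the TATA motif TATAAA and the CArG box. A full cAMP response element holds a half-site on each strand, so these matches overlap. A half-site was found in 5 of the 8 windows (Fos, Fosb, Junb, Atf3 and Dusp1), against 17.8% of 32851 windows of the same length. The full element was found in Dusp1 (1.55% of windows), the CArG box in Zfp36 (1.47%), the TATA motif in Fos (12.4%), and the EGR site in Zfp36 and Fosb (4.70%). No window of a member held the AP-1 site (6.75% of windows). These are letter matches in a short window and describe no binding.

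Library totals ranged from 8348897 to 25397963 reads assigned to the listed genes, and the 10 members together took 0.123% to 0.405% of them. All 12 endothelial markers checked, Cdh5 and Pecam1 among them, were read in every library. Their summed level ran from 122165 to 193022 normalized counts in mesentery and from 48635 to 105086 in epididymal fat. Markers of other cell types were read as well, and their levels stand beside the tissue comparison. For the members, the chow libraries numbered 87 stood apart from the other libraries of their groups, high in mesentery and low in epididymal fat, and the epididymal library numbered 88 was low. Tissue results are therefore given with all libraries and again in those numbered 50 to 53. In RNA from sorted pools, fewer cells of a type and less RNA per cell cannot be told apart.

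Per kilobase of exon (lengths from GENCODE M21, by gene identifier), the members spanned a wide range of levels. By the median over the 12 libraries Dusp1 was highest, with 3761 normalized counts per kb. Ier2 (2013), Fos (1773), Jun (1416), Zfp36 (1372), Junb (1294) and Ier3 (873) followed on the same scale. Egr1 (436), Atf3 (300.1) and Fosb (14.5) were lowest, so Fosb, the least abundant AP-1 subunit here, stood far below its partner genes. Between the highest and the lowest library Atf3 varied 16.7-fold, Fos 9.68-fold and Fosb 9.01-fold, while Dusp1 varied 2.48-fold, Ier2 2.58-fold and Jun 2.92-fold. Neighbours such as Jun and Zfp36, or Fos and Ier2, lay closer together than the spread of either over libraries.

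**Figure D1:**
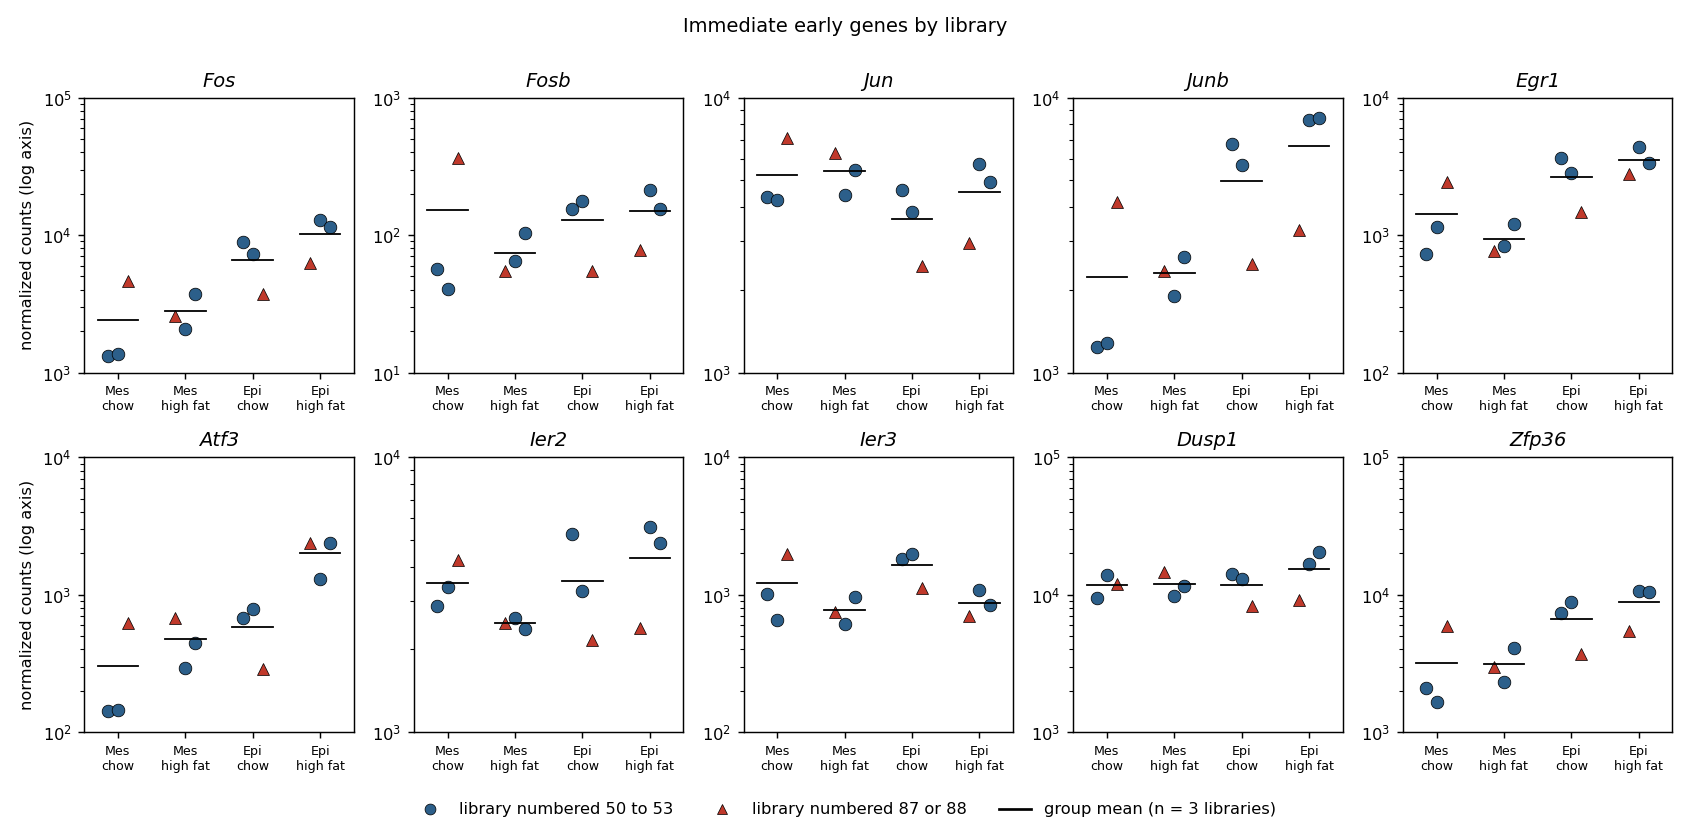
Normalized counts (log axis) of the 10 genes in the 12 libraries of mesentery (Mes) and epididymal fat (Epi) on normal chow or HFD; bars are group means, n = 3 libraries, and red triangles are libraries numbered 87 or 88. Fos, Junb, Egr1, Atf3 and Zfp36 were higher in every epididymal than in every mesenteric library on HFD, and in chow mesentery the library numbered 87 stood above the other 2 for 9 of the 10 genes.

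Fos passed as higher in epididymal than in mesenteric cells on both diets, and Egr1 and Atf3 passed as higher there on HFD. On chow the Fos values of the tissues overlapped. Of 17 other settings, 7 ended the Fos call on chow and 6 ended it on HFD. Counted over the set, 1 of 10 members passed on chow (Fos) and 3 of 10 on HFD (Fos, Egr1 and Atf3), all higher in epididymal fat. Over all genes tested, 12.8% passed on chow and 8.34% on HFD, so the chow share of the members is near the background. Tests were limma's moderated test on log2(normalized count + 1) with Benjamini-Hochberg adjustment over all genes tested and a threshold of 0.05. On that scale the members' median tissue change was 0.76 on chow and 1.18 on HFD, where the medians of all genes were -0.08 and 0.06.

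Fos (ENSMUSG00000021250), the AP-1 subunit with the highest level per length, passed for tissue on both diets, on chow with a call that many settings ended. In mesentery Fos stood at 1325, 1365 and 4602 normalized counts on chow (libraries A, B and C) and at 2563, 2059.6 and 3735 on HFD. Its epididymal levels were 8851, 7313 and 3739.8 on chow and 6319, 12826 and 11532 on HFD. On chow the 2 libraries numbered 50 and 51 differed widely between tissues, whereas mesenteric C overlapped epididymal C. On HFD every epididymal library stood above every mesenteric one. Group means rose from 2431 ± 1881 (SD, n = 3) to 6635 ± 2622 (SD, n = 3) between the tissues on chow, a log2 change of 1.62 (SE 0.47, limma adjusted p = 0.0371). The HFD means were 2786 ± 859.7 (SD, n = 3) and 10226 ± 3444 (SD, n = 3), a log2 change of 1.86 (SE 0.47, limma adjusted p = 0.0276). The chow call held in 10 of 17 other settings, with adjusted p from 0.000249 to 0.157, and the HFD call in 11 of 17, with adjusted p from 0.00122 to 0.124.

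Junb (ENSMUSG00000052837), a Jun protein that is often a weaker activator than Jun, followed Fos in its order of libraries. In mesentery Junb stood at 1235, 1282 and 4160.4 normalized counts on chow (libraries A, B and C) and at 2343, 1893 and 2643 on HFD. In epididymal fat it reached 6756, 5687 and 2479 on chow and 3313, 8324 and 8415 on HFD. On HFD the tissues did not overlap, although epididymal A was well below B and C. On chow, mesenteric C exceeded epididymal C. The log2 changes of 1.28 on chow (limma adjusted p = 0.116) and 1.44 on HFD (limma adjusted p = 0.0994) did not pass.

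Fosb (ENSMUSG00000003545) was the subunit with the lowest level. In mesentery Fosb stood at 56.9, 40.3 and 363 normalized counts on chow (libraries A, B and C) and at 55.2, 65.1 and 104 on HFD. Its epididymal levels were 155, 176 and 55.1 on chow and 77.6, 213 and 155 on HFD. The highest of the 12 libraries was mesenteric C on chow, and the lowest was mesenteric B of the same group. The tissue change was 0.28 on chow (SE 0.72) and 0.92 on HFD (SE 0.72), and neither passed; the sign on chow turned under both count models.

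Jun (ENSMUSG00000052684), the main partner of Fos, had lower group means in epididymal fat on both diets. In mesentery Jun stood at 4362, 4252 and 7119.8 normalized counts on chow (libraries A, B and C) and at 6292, 4418 and 5469 on HFD. In epididymal fat it reached 4611, 3828 and 2441 on chow and 2956, 5759 and 4914 on HFD. The tissues overlapped on both diets, with the lowest levels in the epididymal libraries numbered 87 and 88. Its tissue change was -0.54 on chow (limma adjusted p = 0.307) and -0.29 on HFD (limma adjusted p = 0.717), neither of which passed; in the libraries numbered 50 to 53 the HFD value was 0.11.

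Atf3 (ENSMUSG00000026628), a stress-responsive partner of Jun proteins, had the widest range of the set. In mesentery Atf3 stood at 143, 145 and 619 normalized counts on chow (libraries A, B and C) and at 679, 295 and 444 on HFD. Its epididymal levels were 674, 791 and 290.0 on chow and 2386, 1299 and 2391 on HFD. All 3 epididymal libraries on HFD stood above the other 9 libraries. The tissue change on that diet was 2.12 (SE 0.54, limma adjusted p = 0.0286), from 473 ± 194 (SD, n = 3) to 2025 ± 629 (SD, n = 3) normalized counts. It held in 11 of 17 other settings, with adjusted p from 0.00204 to 0.132. On chow the change of 1.19 did not pass (limma adjusted p = 0.186).

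Egr1 (ENSMUSG00000038418), the zinc finger factor, gave the smallest adjusted p of the set in the main tissue comparisons. In mesentery Egr1 stood at 729, 1145 and 2434 normalized counts on chow (libraries A, B and C) and at 769, 830.2 and 1210.4 on HFD. In epididymal fat it reached 3658, 2854 and 1479.8 on chow and 2763, 4349 and 3369 on HFD. On HFD the lowest epididymal library exceeded the highest mesenteric one, whereas on chow mesenteric C again exceeded epididymal C. The HFD change of 1.90 (SE 0.41, limma adjusted p = 0.0118) passed in 15 of 17 other settings, with adjusted p from 0.000154 to 0.0586. On chow the change of 0.98 did not pass (limma adjusted p = 0.146).

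Ier2 (ENSMUSG00000053560) and Ier3 (ENSMUSG00000003541), the short early response genes, showed no tissue change that passed. In mesentery Ier2 stood at 2872, 3384 and 4242 normalized counts on chow (libraries A, B and C) and at 2496, 2601 and 2366 on HFD. Its epididymal levels were 5246, 3255 and 2165 on chow and 2393, 5576 and 4894 on HFD. The 2 epididymal libraries numbered 87 and 88 were low among the Ier2 values and lay within or below the mesenteric range. In mesentery Ier3 stood at 1005, 656 and 1991 normalized counts on chow (libraries A, B and C) and at 743, 607 and 969 on HFD. In epididymal fat it reached 1831, 1981 and 1122 on chow and 699, 1082 and 839 on HFD. The Ier3 levels of chow epididymal fat were overlapped by mesenteric C. Tissue changes were -0.05 and 0.70 for Ier2 and 0.54 and 0.18 for Ier3, on chow and on HFD in turn; rescaling all columns to one total turned the sign of Ier2 on chow and of Ier3 on HFD.

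Zfp36 (ENSMUSG00000044786) and Dusp1 (ENSMUSG00000024190) are the shut-off genes. In mesentery Zfp36 stood at 2088, 1650.5 and 5891 normalized counts on chow (libraries A, B and C) and at 2978, 2320.1 and 4081 on HFD. Its epididymal levels were 7302, 8785 and 3726 on chow and 5440.0, 10611 and 10409 on HFD. Zfp36 thus had the Fos pattern: no overlap on HFD, and a mesenteric C above epididymal C on chow. Its changes of 1.19 on chow (limma adjusted p = 0.114) and 1.47 on HFD (limma adjusted p = 0.0663) did not pass. In mesentery Dusp1 stood at 9466, 13837 and 11863 normalized counts on chow (libraries A, B and C) and at 14691, 9768 and 11618 on HFD. In epididymal fat it reached 14197, 13044 and 8213 on chow and 9167, 16850.3 and 20327 on HFD. Dusp1 overlapped between tissues on both diets, with changes of -0.01 (SE 0.32) on chow, a value whose sign turned under rescaling, and 0.30 (SE 0.32) on HFD. That Zfp36 and Dusp1 differ in their tissue change was not tested.

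Between tissues, 5 members had no overlap on HFD (Fos, Junb, Egr1, Atf3 and Zfp36) and none on chow; over all genes tested the shares were 26.4% and 28.7%. Single libraries moved the counts of members that passed. On chow the count was 0 without mesenteric A, mesenteric B, epididymal A or epididymal B, 6 without mesenteric C and 4 without epididymal C. The genes that passed over the whole table numbered 1659, 1950, 1523 and 1516 in the first 4 of these settings, and 3278 and 2833 in the last 2. On HFD it was 1, 0 and 2 without mesenteric A, B and C, and 5, 2 and 1 without epididymal A, B and C, where 1194, 815, 1741, 1525, 1276 and 728 genes passed in all. Under edgeR's quasi-likelihood test on the recovered reads the counts were 0 on chow and 1 on HFD, with 1984 and 1021 of all genes.

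The 2 libraries numbered 87 stood apart for these genes, in opposite directions in the tissues, and of those numbered 88 the epididymal one was low. Within chow mesentery the library numbered 87 was the highest of the 3 for 9 members (all but Dusp1), and within chow epididymal fat the library of that number was the lowest for all 10. Within HFD epididymal fat the library numbered 88 was the lowest for 9 members (all but Atf3). In HFD mesentery number 88 did not stand apart. It was the highest of the 3 for 3 members, Jun, Atf3 and Dusp1, and the lowest for 2, Fosb and Egr1. Number 53 was the highest for 6. The summed pancreatic acinar markers, which came with mesentery, were at 22403 normalized counts in the mesenteric library numbered 87 and 243 in the epididymal one. Mesenteric 87 stood apart in these markers too: chow mesentery A and B had pancreatic acinar sums of 149609 and 117869, and its macrophage sum was 10897 against 1952 and 2350.2. It also had the fewest reads of the 12 libraries, 8348897 against 16590159 and 18787039 in chow mesentery A and B. Its endothelial sum was 128084 against 181223 and 193022 there, where HFD mesentery ran from 122165 to 143766.

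The difference between same-numbered libraries shows the same split. Pair 50 had all 10 members higher in epididymal fat, with a median difference of 1.62 on the log2 scale. Pair 51 had 7 higher (median 1.85), pair 52 had 10 (median 1.91) and pair 53 had 8 (median 1.20). Pair 87 had 0 of 10 higher, with a median of -0.79, and pair 88 had 6 higher, with a median of 0.49. Of all tested genes, 44.5%, 47.9%, 47.9% and 48.7% were higher in epididymal fat in pairs 50, 51, 52 and 53. The shares were 48.1% in pair 87 and 60.4% in pair 88, so the count of members in pair 88 is near the background. The median of all tested genes lay between -0.16 and 0 in 5 pairs and was 0.32 in pair 88. For Fos the 6 differences were 2.74, 2.42 and -0.30 in the chow pairs 50, 51 and 87, and 2.64, 1.63 and 1.30 in the HFD pairs 52, 53 and 88. Fosb, the member with the widest swing, went from 2.10 in pair 51 to -2.70 in pair 87.

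**Figure D2:**
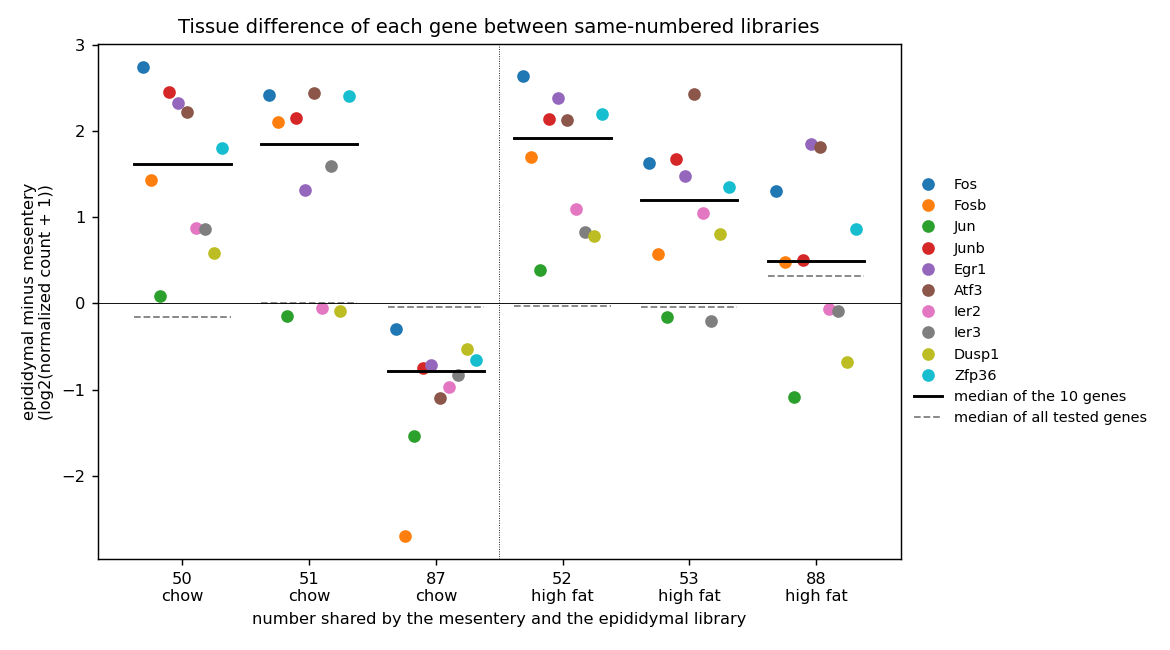
Difference in log2(normalized count + 1), epididymal minus mesentery, between the 2 libraries that share a number; each point is a gene, the solid bar the median of the 10 genes and the dashed bar the median of all tested genes. The 10 points of pair 87 lie below 0, while the medians of pairs 50, 51, 52 and 53 lie between 1.20 and 1.91.

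A coefficient for the number range (87 and 88 against 50 to 53) was fitted beside the group means, first in common for both tissues and then, chosen after the values were seen, for each tissue. In common, 0 of 10 members passed (4.6% of all genes tested), and 0 were under an unadjusted p of 0.05 with limma (31.8% of genes). The count models, edgeR and DESeq2, also called 0. In mesentery all 10 coefficients were above 0 and 0 passed (0.045% of genes), with 5 under an unadjusted p of 0.05 (15.8% of genes). There edgeR called 0 members, DESeq2 called 3 (843 of all genes), and the count was 7 without HFD mesentery A (2285 genes). The mesenteric coefficient averages the library numbered 87 on chow and the one numbered 88 on HFD. The latter was the highest HFD library for 3 members and the lowest for 2, Fosb and Egr1. All 10 signs above 0 thus do not mean that both libraries stood high. In epididymal fat all 10 were below 0 and 2 passed (0.998% of genes): Jun at -0.82 (SE 0.16) and Ier2 at -1.03 (SE 0.20), both with a limma adjusted p of 0.0484. That count ranged from 0 to 8 over other settings and was 0 without any one of the 6 epididymal libraries, while the count over all genes ranged from 0 to 5546. The difference of the coefficients, epididymal minus mesentery, takes in the same mesenteric average. It was below 0 for all 10, from -1.13 for Dusp1 to -2.56 for Fosb. None of these differences passed with limma (0.00899% of genes) or edgeR, although all 10 were under an unadjusted p of 0.05, as were 14.2% of all genes; DESeq2 called 7 (732 of all genes). Leaving out HFD mesentery A brought the count to 6 (297 genes), leaving out HFD mesentery C to 2 (20), and leaving out chow mesentery C to 1 (467). For the same difference, 5 of 46 other immediate early genes (median -0.56) and 1 of 14 heat shock genes (median -0.57) were above 0, with 18 and 7 under an unadjusted limma p of 0.05. With 1 library of the higher range in each group, what sets these libraries apart was not tested.

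Restricting the tissue comparison to the libraries numbered 50 to 53, which leaves 2 against 2 on each diet, gave larger changes. On chow 7 of 10 members passed, all higher in epididymal fat (19.6% of all genes passed). Fos rose by a log2 change of 2.58 (SE 0.26, limma adjusted p = 2.49e-04), Atf3 by 2.33, Junb by 2.30 and Zfp36 by 2.11. Egr1 rose by 1.82, Fosb by 1.77 and Ier3 by 1.23, while Ier2 (0.41), Dusp1 (0.25) and Jun (-0.04) did not pass. On HFD 6 of 10 passed (11.3% of all genes): Atf3 at 2.28, Fos at 2.13, Egr1 at 1.93, Junb at 1.90, Zfp36 at 1.77 and Ier2 at 1.07. Fos, Junb, Egr1, Atf3 and Zfp36 therefore passed on both diets in these 8 libraries, and Jun passed on neither. These libraries leave out those that stood apart for these genes, so the values describe them and are no independent check.

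**Figure D3:**
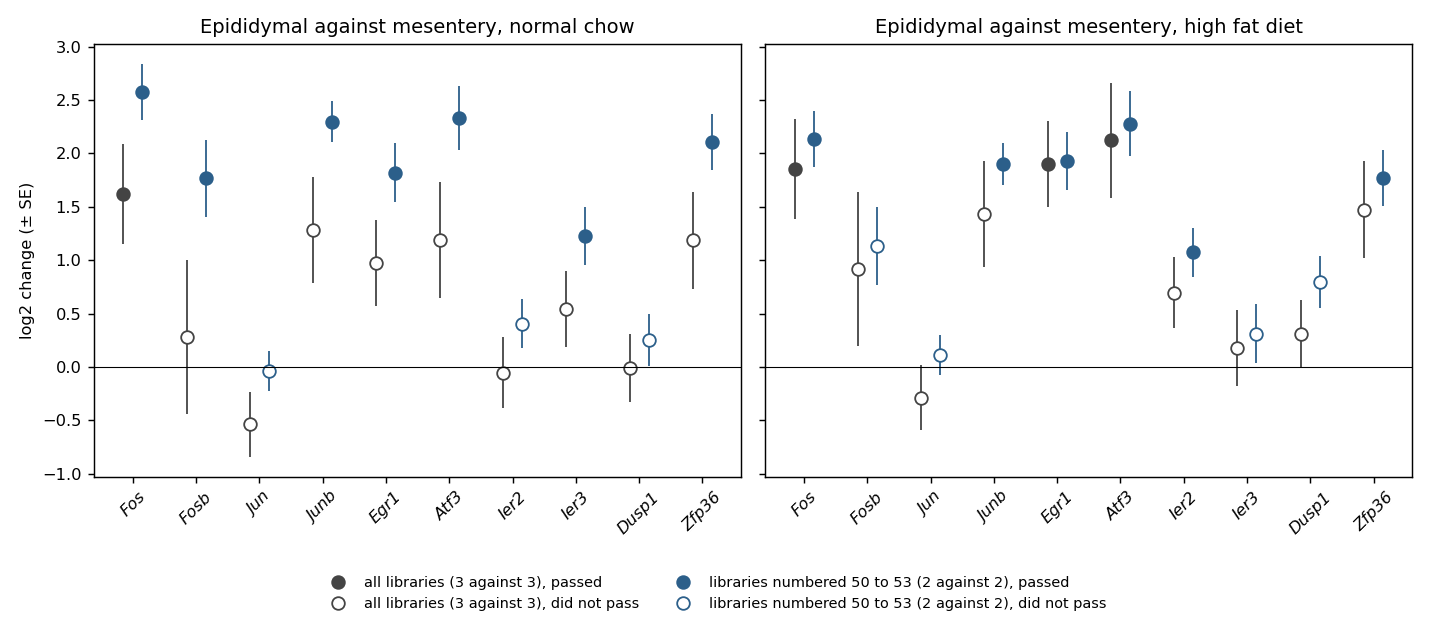
Log2 change of each gene between epididymal fat and mesentery (± SE from limma) on normal chow and on HFD, from all libraries (grey, 3 against 3) and from the libraries numbered 50 to 53 (blue, 2 against 2); filled points passed an adjusted p of 0.05. On chow Fos is the 1 filled grey point and 7 blue points are filled; on HFD 3 grey and 6 blue points are filled.

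Diet changed no member by limma in either tissue. In mesentery 0 of 10 passed (0.0135% of all genes tested), 0 were under an unadjusted p of 0.05 (6.15% of genes), and edgeR and DESeq2 also called 0. The largest mesenteric change was that of Atf3, at 0.92 (SE 0.54, limma adjusted p = 0.897), where chow C lay among the HFD libraries. Ier2 was the 1 member whose mesenteric groups did not overlap, lower on HFD, with a log2 change of -0.47 and a limma adjusted p of 0.919; 9.61% of all genes had no overlap. The members' median diet change in mesentery was 0.05.

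In epididymal fat 0 of 10 passed (0.549% of genes), 2 were under an unadjusted p of 0.05 (6.94% of genes), edgeR called 0 (29 of all genes) and DESeq2 called 1 (563). Atf3 had a mean of 585 ± 262 (SD, n = 3) normalized counts on chow and 2025 ± 629 (SD, n = 3) on HFD, a log2 change of 1.86 (SE 0.54, limma adjusted p = 0.206). It was the 1 gene that DESeq2 called, with an adjusted p of 0.0393, and over the 17 other settings its adjusted p ranged from 0.0393 to 0.800. Ier3 had a lower mean on HFD, 874 ± 194 (SD, n = 3) against 1645 ± 459 (SD, n = 3), a log2 change of -0.89 (SE 0.35, limma adjusted p = 0.524). Atf3 and Ier3 were the 2 members with no overlap between the diets, against 13.5% of all genes. The other 8 members had changes from 0.25 (Fosb) to 0.65 (Fos), all above 0 with an adjusted p of 1.00, and all overlapped. The median of the members was 0.39 and that of all genes 0.10.

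The diet effect did not differ detectably between tissues for any member. For the difference of the diet effects 0 of 10 passed (0.0045% of genes), and edgeR and DESeq2 called 0. None of the 10 differences was under an unadjusted p of 0.05 (4.71% of genes). The largest of these, epididymal minus mesentery, were those of Atf3 at 0.93 (SE 0.76) and Egr1 at 0.93 (SE 0.57). Neither passed.

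Most pairs of members had levels that correlated over these libraries. Over the 12 libraries the 45 pairs of members had a median Pearson r of 0.58 in log2 values, from about 0 for Jun with Egr1 to 0.98 for Fos with Zfp36. Around the 4 group means the median r was 0.79, all 45 pairs were above 0 and 41 were above 0.5. Fos and Junb were the closest pair by that measure (r = 0.97), and Atf3 and Ier2 the least alike (r = 0.29). Fos with Jun went from 0.06 over the values to 0.90 around the group means, so that the 2 genes were alike in how single libraries stood to their group and not in how the groups stood to each other. The points share their libraries, and each r describes these 12 libraries only. The share of all gene pairs with such an r was not counted, so these values are not shown to be particular to the members. For the number range in epididymal fat, 35.4% of all genes had an unadjusted limma p under 0.05.

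**Figure D4:**
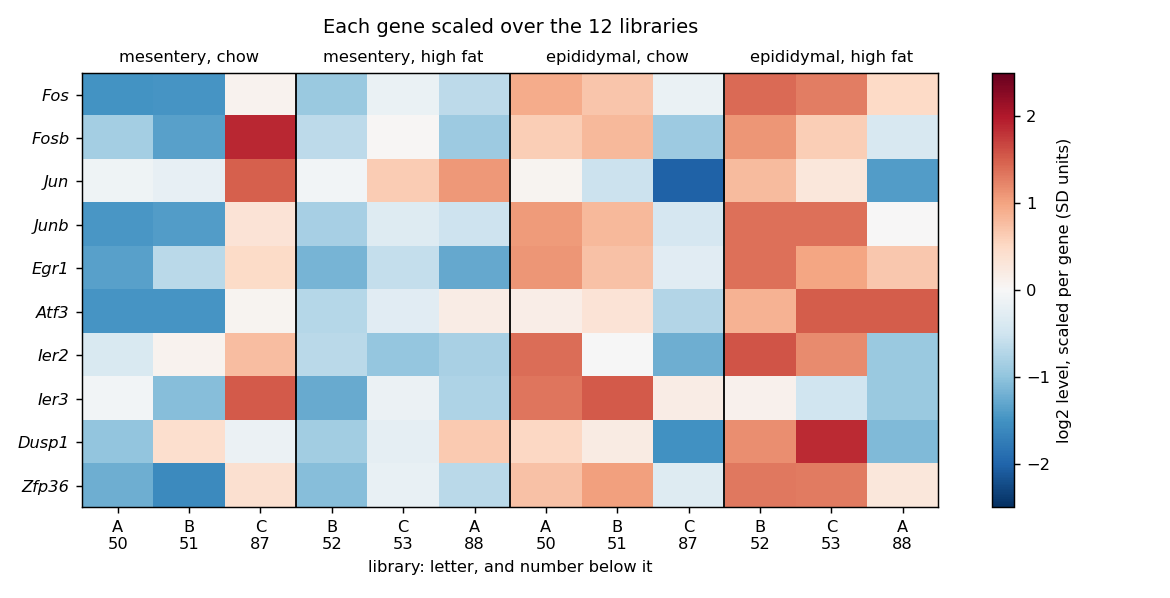
Log2 level of each gene, scaled to mean 0 and SD 1 over the 12 libraries; columns are libraries by group, with letter and number below, and colours run from blue (low) to red (high). Chow mesentery C and chow epididymal C, both numbered 87, differ from the 2 neighbouring libraries of their group in opposite directions for 9 of the 10 genes, all but Dusp1.

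Among 9814 other genes with a mean of at least 100, the 5 most like the mean scaled level of the members over the 12 libraries were Socs3 (r = 0.948), Ap5s1 (r = 0.927), Atg10 (r = 0.910), Ppp1r15a (r = 0.908) and Serf1 (r = 0.904). Socs3, an inhibitor of cytokine signalling, and Ppp1r15a, a regulator of the stress response of translation, are early response genes of the list described next. Socs3 stood at 272, 188 and 1064 normalized counts in chow mesentery and at 1010.3, 716 and 343 in chow epididymal fat, so it too was high in mesenteric C and low in epididymal C. Around the group means the 5 most like genes were Gsn (r = 0.965), Ch25h (r = 0.962), Fbxo45 (r = 0.960), Cdk5rap3 (r = 0.952) and Zdhhc16 (r = 0.948).

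Other immediate early genes moved in both directions between tissues on chow, and those that passed on HFD were all higher in epididymal fat. Of a list of 49, 46 were tested. On chow 7 passed higher in epididymal fat and 8 passed lower, with a list median of 0.05; 12.8% of all genes passed. Those with the largest changes were Egr2, a relative of Egr1 (2.55), the growth regulator Myc (2.32), Errfi1, an inhibitor of EGF receptor signalling (2.01), and the pseudokinase gene Trib1, which was lower (-1.96). Egr2 stood at 5.69, 4.48 and 40.8 normalized counts in chow mesentery and 88.5, 115 and 28.6 in chow epididymal fat, again with a high mesenteric C and a low epididymal C. Errfi1 stood at 182, 215 and 206 and 998, 771 and 699 in the same groups, where mesenteric C was not apart and the tissues did not overlap. On HFD 4 passed higher and 0 lower (list median 0.55), where 8.34% of all genes passed: Cebpb (1.55), Btg2 (1.31), Errfi1 (1.14) and the AP-1 subunit Jund (1.06). In the libraries numbered 50 to 53 the counts were 16 higher and 8 lower on chow, and 13 higher and 0 lower on HFD, where 19.6% and 11.3% of all genes passed. No gene of the list passed for diet in either tissue or for the difference of the diet effects. Under an unadjusted limma p of 0.05 were 7 in mesentery, 3 in epididymal fat and 7 for the difference. Over all genes the shares were 6.15%, 6.94% and 4.71% in turn.

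Kinases and factors upstream of these genes were read as a list of 18. On chow 0 passed higher and 3 lower in epididymal fat (12.8% of all genes passed in either direction): Mapk8, the JNK1 kinase gene (-1.57), Creb1, which binds the cAMP response element (-0.89), and Mrtfb, a cofactor of serum response factor (-0.84). On HFD 1 passed, the ETS factor gene Elk3, which was lower (-0.88). In the libraries numbered 50 to 53 the counts were 2 higher and 5 lower on chow (19.6% of all genes passed), and 1 higher and 1 lower on HFD (11.3%). The list medians over all libraries were 0.06 on chow and -0.01 on HFD.

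Markers of other cell types moved with tissue, and several lists also moved with the number of the library. The 7 fibroblast markers summed to between 4604 and 9977 normalized counts in mesentery, against 57661, 40825 and 18654 in chow epididymal fat and 46670.1, 62471 and 59828 in HFD epididymal fat. Epididymal C on chow and A on HFD had the lowest fibroblast sums of their groups, sums in which Dcn was the largest part (50685 of 57661 in chow epididymal A). Single markers differed: Dpt was not lowest in chow C (565 against 443 in A), nor were Col1a1, Col3a1 and Dpt in HFD A. Both libraries were also the lowest of their groups for most members and for the endothelial, smooth muscle and adipocyte sums. Those smooth muscle and pericyte sums were 12301 and 5967, against 22484 and 21649 in the other chow and 11955 and 9249 in the other HFD epididymal libraries. For the number range, epididymal minus mesentery, the lists went different ways. Above 0 were 0 of 6 adipocyte markers (median -1.68, 5 under an unadjusted limma p of 0.05) and 0 of 11 macrophage markers (median -2.02, 3 under it). So were 2 of 7 fibroblast (median -0.82, 2 under it), 2 of 8 smooth muscle and pericyte (-0.47) and 3 of 12 endothelial markers (-0.22). Neutrophil markers had 2 of 5 (-0.46) and globin genes 0 of 3 (-0.57). Pancreatic acinar markers had 6 of 6 above 0 (1.65), T and B cell markers 5 of 7 (1.20) and mesothelial markers 3 of 5 (0.24). Over all genes 54.2% were above 0, and 14.2% were under the unadjusted p. All 7 fibroblast markers passed higher in epididymal fat on both diets, and 2 of 7 passed higher on HFD in epididymal fat. None of the 7 was at 0 in any library.

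The 11 macrophage markers summed to 1952 to 26853 in mesentery, 6914 to 89474 in chow epididymal fat and 143478 to 361002 in HFD epididymal fat. That last group also had the highest mean of Fos, Junb, Egr1, Atf3, Ier2, Dusp1 and Zfp36, but not of Fosb, Jun or Ier3. Of the 11, 4 passed higher in epididymal fat on chow, 9 on HFD, and 0 for diet in either tissue; Adgre1 was at 0 in at least 1 library. Smooth muscle and pericyte markers passed higher in epididymal fat in 6 of 8 cases on chow and 3 of 8 on HFD, adipocyte markers in 6 of 6 and 0 of 6, and mesothelial markers in 4 and 1 of 5 tested. Their sums ranged over 1325 to 3848, 3899 to 8618 and 66.2 to 244 in mesentery. In epididymal fat they ranged over 5967 to 22484, 3938 to 85648 and 236 to 758. Msln, Lrrn4 and Wt1 were at 0 in at least 1 library. Between diets, 3 of 6 adipocyte markers passed lower on HFD in epididymal fat and 1 of 6 higher in mesentery. The 3 globin genes passed higher in epididymal fat on both diets (31874 to 43934 summed, against 175 to 396 in mesentery). The 6 pancreatic acinar genes passed lower (183 to 550.0, against 22403 to 149609 in mesentery), with Clps, Cpa1, Ctrb1, Pnlip and Prss2 at 0 in at least 1 library. Neutrophil and lymphocyte markers passed in no comparison of diet or tissue; neutrophil markers summed to 32.1 to 525 normalized counts, highest in chow mesentery C, and Csf3r and Ly6g were at 0 in at least 1 library. The T and B cell markers summed to 172 to 7491, highest in HFD mesentery C, with Cd79b at 0 in at least 1 library. Of the 12 endothelial markers, 6 passed lower and 2 higher in epididymal fat on chow, and 7 lower and 1 higher on HFD. The part of other cell types in the levels of the members was not tested.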

How the data were processed

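Values are normalized counts per gene, a signal that the authors deposited in 1 table for all 12 libraries. Per the submitters' processing notes, STAR 2.7.9a, featureCounts, Subread and DESeq2 1.34.0 were used with mm39; their settings and the use of strand are not given in the sources used here. Dividing by a step per library gave whole reads for 100% of values (tolerance 0.01), and the steps equalled median-of-ratios size factors. A floor of 3 reads is 2.12 to 4.22 normalized counts, covering counting error only, and the lowest total of a gene was 51 reads.

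Groups came from the sample titles. Because the values are normalized, limma 3.58.1 (R 4.3.3; trend) was fitted to log2(normalized count + 1) for 22238 genes with a mean of at least 10, with 4 group means and Benjamini-Hochberg adjustment over all genes; log2 changes understate those of low genes. Count tests on the recovered reads, edgeR 4.0.16 and DESeq2 1.42.0, were alternatives. By edgeR 1, 29, 1984, 1021 and 1 genes passed for the diet comparison in mesentery and in epididymal fat, the tissue comparison on chow and on HFD, and the difference of the diet effects. Other alternatives changed the pseudocount, filter, scaling, block and libraries. The fit was checked on simulated data.

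The members and gene lists were chosen with earlier results of these data known. All 10 members are named, for each list up to 4 genes with the largest change among those that passed in a comparison, and the 5 most alike genes; Socs3 values are given as the first of these. Exon lengths come from GENCODE M21 and promoters from RefSeq, both on GRCm38, matched by identifier or symbol; the promoter of Ier2 was not in the table and that of Egr1 is not used here.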

Additional observations from a re-analysis of the deposited data

How the results depend on the processing

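Members past the threshold were recounted under other settings. For diet in mesentery, for the difference of the diet effects and for the number range in common, the count stayed at 0 in all settings tried. For diet in epididymal fat it was 1 under DESeq2 (563 of all genes) and 0 otherwise. For tissue on chow (1 as reported) it was 0 under edgeR (1984 of all genes) and with only the 2 groups in the fit (1999). It was 7 in the libraries numbered 50 to 53 (4349), and 0 to 6 on leaving out 1 library (1516 to 3278). For tissue on HFD (3 as reported) it was 1 after rescaling and under edgeR, 5 under DESeq2 and with only the 2 groups in the fit, 6 in the libraries numbered 50 to 53, and 0 to 5 on leaving out 1 library. The number range by tissue was added after seeing the data. In mesentery its count was 3 under DESeq2 and 0 to 7 on leaving out 1 library. In epididymal fat (2 as reported) it was 0 with a pseudocount of 0.5, with a minimum mean of 100 and after rescaling, 4 with a pseudocount of 5, without the filter and under edgeR, 6 under DESeq2, and 0 to 8 on leaving out 1 library. The difference between tissues gave 7 under DESeq2 and 0 to 6 on leaving out 1 library. The number of all genes that passed moved with the setting too, so these shifts are not a result about the members alone. The cause of these shifts was not tested.

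Signs turned for members near 0. On chow Fosb was at -0.129 under edgeR, -0.254 under DESeq2 and -0.327 to 1.24 on leaving out 1 library. Ier2 was at 0.0384 after rescaling, 0.0852 under edgeR, 0.0193 under DESeq2, 0.407 in the libraries numbered 50 to 53 and -0.380 to 0.259 on leaving out 1. Dusp1 was at 0.0804, 0.0667, 0.00909 and 0.250 in the same settings, and -0.162 to 0.233 on leaving out 1. On HFD Jun was at 0.114 in the libraries numbered 50 to 53 and Ier3 at -0.00713 after rescaling. Rescaling moved the median log2 change of all genes from -0.0023 to 0.13 for diet in mesentery, from 0.10 to -0.04 for diet in epididymal fat, from 0.06 to -0.12 for tissue on HFD and from 0.11 to -0.16 for the difference of the diet effects. Apart from leaving out libraries, the number of all genes that passed ranged from 1 to 150 for diet in mesentery (3 as reported), 29 to 563 for diet in epididymal fat (122), 1984 to 4349 for tissue on chow (2843), 1021 to 2931 for tissue on HFD (1854), 1 to 130 for the difference of the diet effects (1), and 0 to 5322 for the number range (1022).

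A replicate block on the shared number was fitted for tissue: 0 members passed on chow, where Fos kept a log2 change of 1.62 with a limma adjusted p of 0.0575, and 3 passed on HFD. A block on the title letter left 0 for diet in each tissue. Same-numbered libraries deviated from their group means with correlations over all genes of 0.027, 0.53 and 0.58 for the numbers 50, 51 and 87, and 0.15, -0.11 and -0.15 for 52, 53 and 88. Of 12 libraries, 7 correlated best with the library of their own number, and the numbers were not taken as pairs.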

Other observations

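Heat shock genes, another group known to respond to tissue dissociation, were read as a list of 14, chosen with earlier results known. On chow 1 passed higher in epididymal fat (Hspd1, a mitochondrial chaperonin gene, at 0.74) and 0 passed lower, where 12.8% of all genes passed. On HFD 1 passed higher (Hspe1, its co-chaperonin, at 0.73) and 0 lower, where 8.34% of all genes passed. The list medians were 0.07 and -0.06, with 8 of the 14 above 0 on chow and 6 on HFD. The largest changes of the list were lower in epididymal fat and did not pass. They were those of Hspa1a (-1.43 on chow and -1.64 on HFD) and Hspa1b (-1.37 and -1.91). In the libraries numbered 50 to 53, 4 passed higher on chow (Hspb1, Hspa5, Dnajb4 and Hspd1) and 2 on HFD (Hspa5 and Hspe1). Over all genes 19.6% and 11.3% passed there. For diet 0 passed with limma in either tissue. In mesentery 1 was under an unadjusted p of 0.05 (6.15% of all genes), and in epididymal fat 2 were (6.94%). Counts by edgeR and DESeq2 were not made for this list.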
